A study of Homo sapiens with 12 samples.

Results

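This account follows 10 genes at the output end of the Hippo pathway in SH-SY5Y, an established line derived from a human neuroblastoma that serves as a stand-in for neurons. They are the coactivators YAP1 and WWTR1 (whose protein is called TAZ), the DNA-binding factors TEAD1, TEAD2 and TEAD4, their antagonist VGLL4, and the target genes CCN1, CCN2, AMOTL2 and LATS2. The list was chosen by gene name with group differences of these arrays known, among them the fibrillar difference of VGLL4. Each gene was read from the probe set that carried only its symbol and had the highest mean over all 12 arrays. All 10 had such a probe set, among 19775 genes that did, and 8 of them were among the 11774 genes above the filter on low values.

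Gene expression was measured on 12 Affymetrix 3′ arrays in 4 groups of 3. Per the labels, cells had received oligomeric amyloid-β (Aβ, the peptide of Alzheimer plaques) with an incubation of 6 h, or its fibrillar form with 24 h, and each had controls of its own time. Form and duration were never varied separately. Whether the hours describe ageing of the peptide or treatment of the culture is not given in the labels. They name no dose, vehicle or passage, and they do not say that replicates were separate cultures, so each p-value reflects the scatter of these arrays, which may be technical. Values are log2 MAS5 signals (the array maker's summary of a probe set), whose median per array lay between 3.89 and 4.12. Precision is limited by having 3 arrays a group, and in RNA from a whole culture fewer cells with a transcript and less transcript per cell cannot be told apart. Of 11 noradrenergic markers, which define this line, 10 were above the filter level. GATA3, the highest, lay between 11.98 and 12.22 and ISL1 between 10.89 and 11.16. HAND1 and HAND2 had means of 6.47 and 6.30, and TH, below the filter level, of 0.73. Of 10 mesenchymal markers 9 were above it. VIM, the highest, lay between 13.04 and 13.32, while CD44 had a mean of 5.12 and PRRX1, below the filter level, of 3.38. The 5 epithelial markers had means of 4.89 (KRT18), 4.53 (EPCAM), 3.17 (KRT8), 1.59 (CDH1) and 0.72 (KRT19), the first 2 above the filter level.

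In the Hippo pathway a kinase cascade ending in LATS1 and LATS2 phosphorylates YAP and TAZ, which are then held in the cytoplasm or degraded. Unphosphorylated YAP and TAZ enter the nucleus and bind TEAD factors, which cannot activate genes well by themselves. VGLL4 binds the same TEAD surface and competes with YAP. CCN1 and CCN2 encode secreted matrix-associated proteins and are classic targets, and AMOTL2 and LATS2 are targets whose products restrain YAP. In neuroblastoma, YAP activity has been linked to the mesenchymal state.

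The TEAD recognition sequence is GGAATG, read on either strand (CATTCC on the other). Windows of 250 bases before a gene's start were read from RefSeq (GRCh38.p14) for the members that the sequence table holds, 7 of 10, with 14 start sites. The sequence occurred in 3 of the 14 windows, 1 each of CCN2, AMOTL2 and YAP1, and in 11.9% of all 35116 windows of that length. The other AMOTL2 window held none. The CCN2 window held it 3 times, at 169, 104 and 95 bases before the start, and 0.0826% of all windows held it 3 times or more. All 3 windows with a match are shown, that of CCN2 whole and those of AMOTL2 and YAP1 as stretches of 54 bases around it. The signal of CCN2 was under the filter level on these arrays, and AMOTL2 and YAP1 were above it in every array. No link between sequence and level was tested. Capitals mark the sequence and all other bases are in lower case. The stretches lie at chr6:131951373-131951622 (minus strand) for CCN2, chr3:134374487-134374540 (minus strand) for AMOTL2 and chr11:102110261-102110314 (plus strand) for YAP1.
CCN2: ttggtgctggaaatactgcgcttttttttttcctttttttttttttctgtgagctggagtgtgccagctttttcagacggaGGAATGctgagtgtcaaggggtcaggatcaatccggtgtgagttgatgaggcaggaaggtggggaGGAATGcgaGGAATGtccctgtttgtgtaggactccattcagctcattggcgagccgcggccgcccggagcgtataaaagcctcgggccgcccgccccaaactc
AMOTL2: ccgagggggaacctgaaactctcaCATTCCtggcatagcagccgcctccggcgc
YAP1: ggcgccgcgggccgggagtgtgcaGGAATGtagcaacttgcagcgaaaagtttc
The LATS2 window held no match before the start. The windows of VGLL4, WWTR1 and TEAD2 held no match. A match of these letters is a description of the window and not a binding site.

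Of the pairwise comparisons, the one between the 6 h and 24 h controls had the most member calls, 4 against 3 between the treated arrays. With a constant prior variance these numbers were 2 and 3. Of all genes, more were called between the treated arrays (15.1%) than between the controls. YAP1, TEAD2, CCN1 and AMOTL2 were lower at 24 h, by 0.35 to 0.69 on the log2 scale, in a comparison where 11.7% of all genes were called and the RNA quality measure given below also differed. Of these 4 only TEAD2 was also called, by limma, between the treated arrays of 24 h and 6 h. VGLL4 had a higher level with fibrillar Aβ at 24 h, a value known when the members were chosen and given here as a description, and none of the other 7 tested members passed there. With oligomeric Aβ at 6 h none of the 8 passed. CCN2 and LATS2 had mean levels under the filter (log2 3.78, a signal of 13.8) and were not tested.

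**Figure D1:**
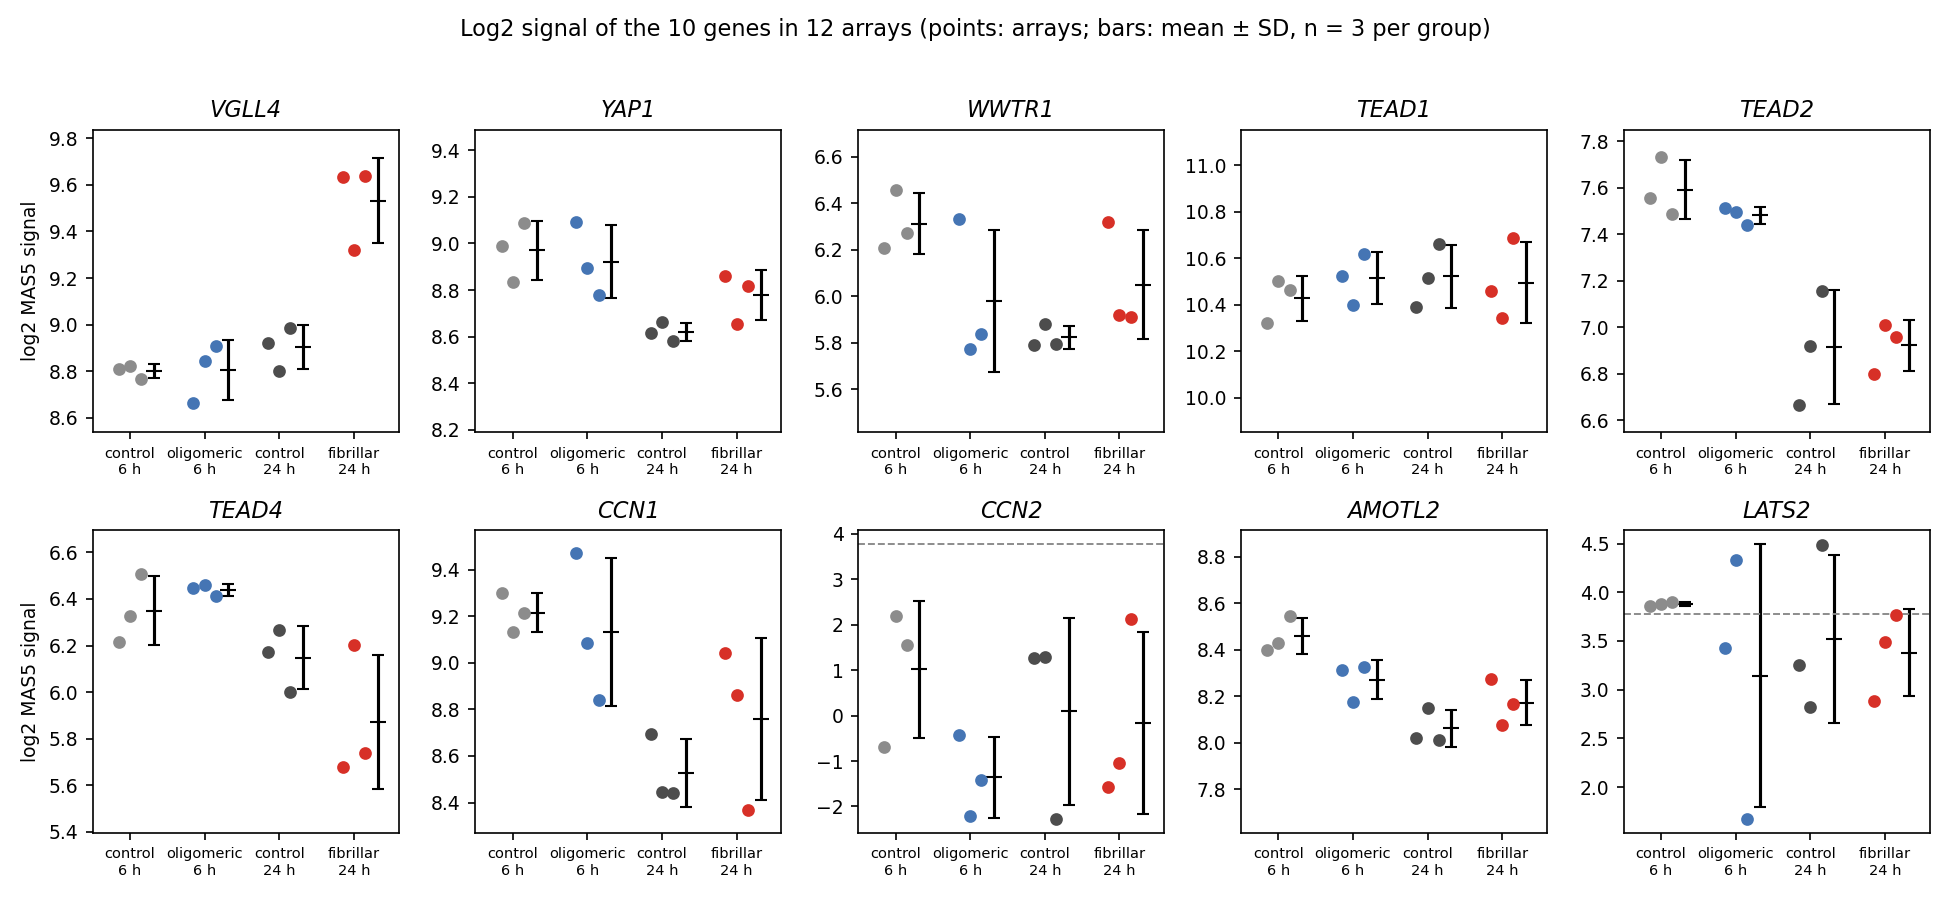
Log2 MAS5 signal (vertical axis) of the 10 genes in each array, by group (horizontal axis, 3 arrays each), with the mean ± SD beside the points. Panels of the 8 tested genes span the same log2 range, and dashed lines mark the filter level of 3.78 in the CCN2 and LATS2 panels. The 3 fibrillar arrays of VGLL4 lie between 9.32 and 9.64, above all others, and the 6 arrays of TEAD2 at 24 h lie below the 6 at 6 h.

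YAP1, the coactivator, stood at 8.99, 8.83 and 9.09 in the 6 h controls (replicates 1, 2 and 3) and at 9.09, 8.90 and 8.78 with oligomeric Aβ. In the 24 h controls it stood at 8.62, 8.66 and 8.58, and with fibrillar Aβ at 8.86, 8.66 and 8.82. The 24 h controls were below all 6 h controls, and the fibrillar arrays overlapped them. YAP1 fell between the controls by 0.35 (SE 0.09, limma adjusted p = 0.0224), from 8.97 ± 0.13 to 8.62 ± 0.04 (SD, n = 3). This call was lost without control replicate 1 (adjusted p = 0.0661) or 3 (0.0896) of 6 h, or replicate 1 (0.0663) or 3 (0.0812) of 24 h. With fibrils its level differed from the controls by 0.16 (95% interval −0.04 to 0.35) and with oligomers by −0.05 (−0.25 to 0.15).

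WWTR1 encodes TAZ, the paralog of YAP. Its levels were 6.21, 6.46 and 6.27 in the 6 h controls, 6.33, 5.77 and 5.84 with oligomers, 5.79, 5.88 and 5.80 in the 24 h controls and 6.32, 5.92 and 5.91 with fibrils. Replicate 1 of each treated group was high and lay among the 6 h control values. Between the controls the difference was −0.49 (SE 0.18, limma adjusted p = 0.0883), with groups that did not overlap. After median centring it passed (−0.62, adjusted p = 0.0273). The oligomeric difference of −0.33 (SE 0.18) and the fibrillar difference of 0.23 (SE 0.18) did not pass, with adjusted p-values of 1 and 0.635 after rounding.

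Among the TEAD factors, which carry YAP and TAZ to DNA, TEAD1 showed no difference that passed in any comparison. Its 12 arrays lay between 10.32 and 10.69, the group means between 10.43 and 10.52, and every group overlapped its neighbours in the order of means. The 24 h controls differed from the 6 h controls by 0.09 (95% interval −0.10 to 0.29) and the fibrillar arrays from their controls by −0.03 (−0.23 to 0.17).

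TEAD2 had 7.56, 7.73 and 7.49 in the 6 h controls and 7.51, 7.49 and 7.44 with oligomers, against 6.67, 6.92 and 7.16 in the 24 h controls and 6.80, 7.01 and 6.96 with fibrils. Arrays of 24 h lay below those of 6 h in controls and treated cells alike. The fall between the controls was 0.68 (SE 0.12, limma adjusted p = 0.00257). Between the treated arrays, a comparison added after the data were seen and made of other arrays, TEAD2 fell by 0.56 (SE 0.12, adjusted p = 0.00704). Its difference with fibrils was 0.01 (95% interval −0.26 to 0.27) and with oligomers −0.11 (−0.37 to 0.16).

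TEAD4 stood at 6.22, 6.33 and 6.51 in the 6 h controls, 6.44, 6.46 and 6.41 with oligomers, 6.17, 6.27 and 6.00 in the 24 h controls and 5.68, 6.20 and 5.74 with fibrils. Fibrillar replicates 1 and 3 were the lowest arrays, and replicate 2 lay among the controls. The difference between the controls, −0.20 (SE 0.16, limma adjusted p = 0.456), did not pass. Fibrillar arrays were lower than oligomeric ones by 0.57 (SE 0.16, adjusted p = 0.0267). It did not pass when fibrillar replicate 1 (adjusted p = 0.102) or 3 (0.101) was left out, nor without oligomeric replicate 1 (0.0523), 2 (0.078) or 3 (0.061).

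VGLL4, the antagonist, had 8.81, 8.82 and 8.77 in the 6 h controls, 8.66, 8.85 and 8.91 with oligomers, 8.92, 8.80 and 8.99 in the 24 h controls and 9.63, 9.32 and 9.64 with fibrils. Only the fibrillar arrays stood apart, and the other 3 groups overlapped one another. The level with fibrils was 9.53 ± 0.18 against 8.90 ± 0.09 in the controls (SD, n = 3), a difference of 0.63 (SE 0.09) or 1.55-fold. VGLL4 was put among the members with this result known, so it is given as a description. The difference between oligomers and controls was 0.0045 (SE 0.09, 95% interval −0.19 to 0.20). The fibrillar response exceeded the oligomeric one by 0.62 (SE 0.13), which is the same known fibrillar difference less a value near 0.

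The other probe set of VGLL4, which did not choose the member, gave a smaller value. It read 7.55, 7.51 and 7.24 in the 24 h controls and 7.93, 7.32 and 7.62 with fibrils, and these groups overlapped. The difference was 0.19 (SE 0.16, 95% interval −0.14 to 0.52, limma adjusted p = 0.804 over every probe set), and the mean of both probe sets gave 0.41 (SE 0.12, adjusted p = 0.134). Both probe sets carry the array maker's _s mark, for probe sets that match several transcripts, and which VGLL4 transcripts each one reads was not examined. Whether the probe sets differ from each other was not tested.

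**Figure D2:**
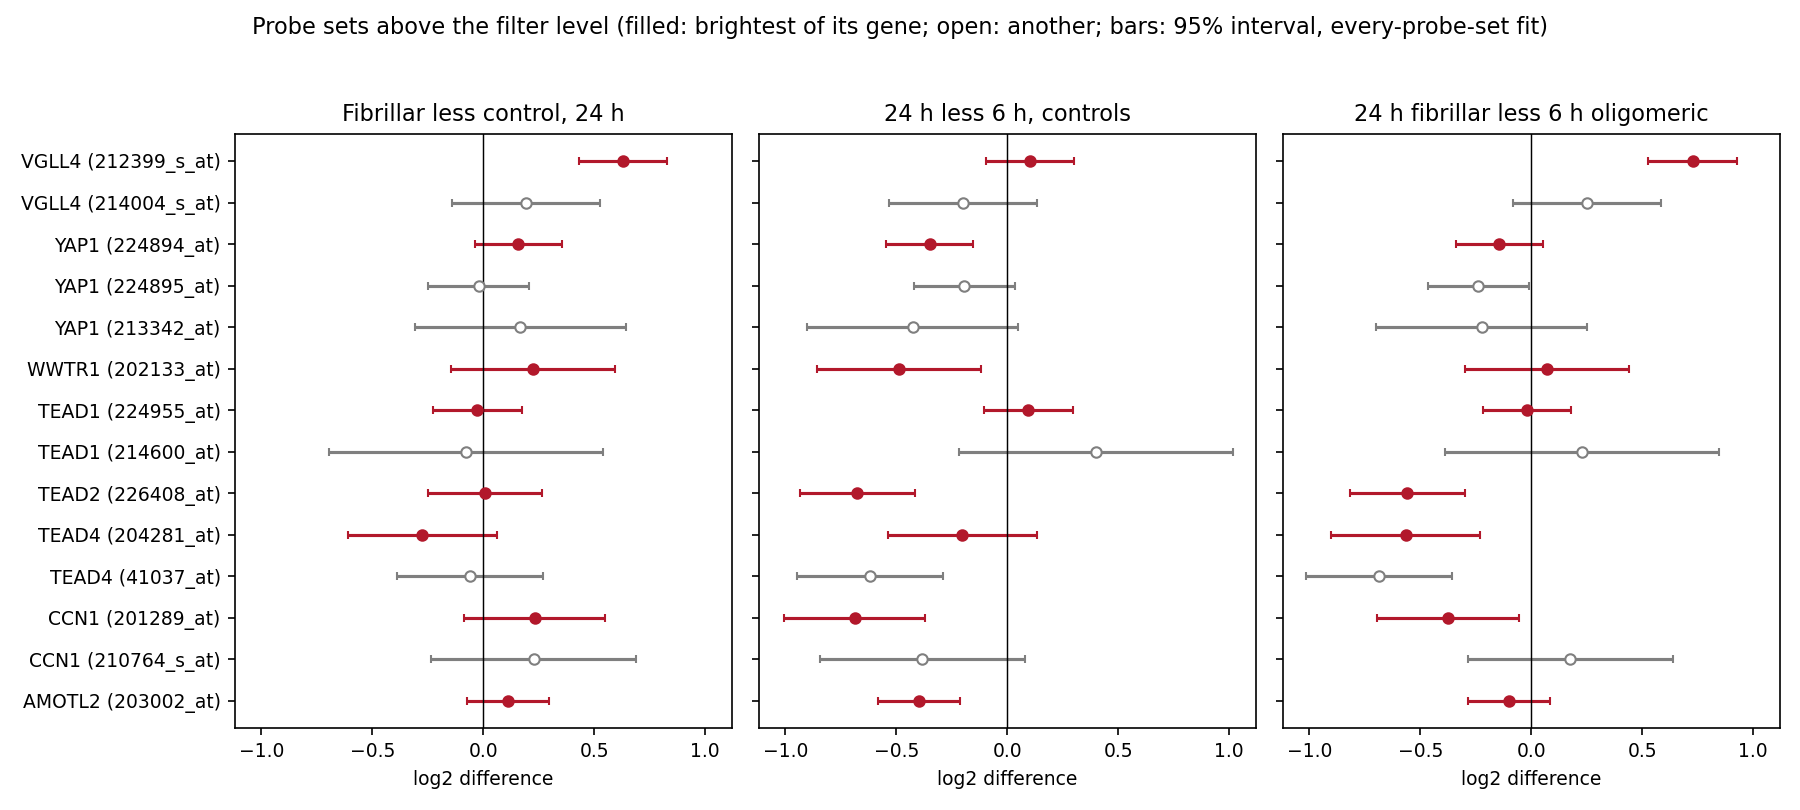
Log2 difference (horizontal axis) of the 14 member probe sets with a mean at or above the filter level, in 3 comparisons, with 95% intervals from the fit that kept every probe set. Filled points are the brightest probe set of a gene and open points its others. With fibrils the brightest VGLL4 probe set lies at 0.63 and its other at 0.19, and between the controls the TEAD4 probe sets lie at −0.20 and −0.62.

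The members had 25 probe sets in all, and 14 of them, for 8 genes, were at or above the filter. The other TEAD4 probe set fell between the controls by 0.62 (SE 0.16, limma adjusted p = 0.0359), where the brightest one did not pass, and it fell between oligomeric and fibrillar arrays by 0.69 (SE 0.16, adjusted p = 0.0177). For YAP1 the other 2 probe sets differed between the controls by −0.19 (SE 0.11) and −0.43 (SE 0.23), and neither passed (adjusted p = 0.443 and 0.412). TEAD2 had 4 probe sets, only 1 of them above the filter level. Between the controls those ranked 2 and 3 by level went the other way, by 1.68 (SE 0.70) and 2.57 (SE 1.06). Neither passed (limma adjusted p = 0.247 and 0.246 over every probe set), and the one ranked 4 differed by −0.34 (SE 1.11). Probe sets of a gene share its RNA and are not replicates.

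CCN1, the first of the targets, read 9.30, 9.13 and 9.21 in the 6 h controls, 9.47, 9.09 and 8.84 with oligomers, 8.69, 8.44 and 8.44 in the 24 h controls and 9.04, 8.86 and 8.37 with fibrils. The treated groups spread more widely than their controls, with SDs of 0.32 and 0.35 against 0.08 and 0.14. It fell between the controls by 0.69 (SE 0.16, limma adjusted p = 0.0098), from 9.21 ± 0.08 to 8.53 ± 0.14 (SD, n = 3). With the mean of its probe sets the change was −0.54 and did not pass (adjusted p = 0.0853), and the other probe set, which carries the _s mark, had −0.38 (SE 0.22, adjusted p = 0.463). The differences with oligomers, −0.08 (95% interval −0.42 to 0.25), and fibrils, 0.23 (−0.10 to 0.56), did not pass. Between oligomeric and fibrillar arrays CCN1 differed by −0.37 (SE 0.16, adjusted p = 0.121).

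CCN2, the target with the 3 TEAD sequences above, had a single probe set, and all 12 arrays were under the filter level, from −2.28 to 2.19. The group means were 1.02 and 0.09 in the 6 h and 24 h controls and −1.36 and −0.16 with oligomers and fibrils, with SDs from 0.89 to 2.05 (n = 3). The arrays of the 4 groups overlapped, and no comparison was read from signals this low. Detection calls were not used here, so the level is given only as being under the filter.

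AMOTL2, a target that binds YAP at cell junctions, had 8.40, 8.43 and 8.54 in the 6 h controls, 8.31, 8.18 and 8.33 with oligomers, 8.02, 8.15 and 8.01 in the 24 h controls and 8.27, 8.08 and 8.17 with fibrils. It was read from its only probe set. The fall between the controls was 0.40 (SE 0.09, limma adjusted p = 0.00728). With oligomers the level was lower in 3 of 3 arrays, by 0.19 (SE 0.09), without overlap, as for 3.76% of all genes in that direction, and did not pass (adjusted p = 1 after rounding, unadjusted p = 0.0466). With fibrils the groups overlapped and the difference was 0.11 (95% interval −0.07 to 0.29). Fibrillar and oligomeric arrays differed by −0.10 (SE 0.09, adjusted p = 0.484).

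LATS2, the kinase gene that is itself a target, had 4 probe sets, all under the filter level. The brightest read 3.86, 3.88 and 3.90 in the 6 h controls, 3.43, 4.33 and 1.67 with oligomers, 3.26, 2.82 and 4.48 in the 24 h controls and 2.89, 3.49 and 3.77 with fibrils. In 7 of the 12 arrays it was under the filter level, and its SD reached 1.35 with oligomers, so no difference was read.

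By comparison, 4 of the 8 tested members fell and 0 rose between the 6 h and 24 h controls, and 11.7% of 11774 genes were called there, 3.76% higher and 7.92% lower (443 and 932). After centring each array on its median, all genes shifted to a median change of −0.15 in this comparison, and the calls split into 140 higher and 1769 lower. YAP1, TEAD2, CCN1 and AMOTL2 stayed lower and called there, with changes from −0.48 to −0.82, while the uncalled differences of VGLL4 and TEAD1 turned to −0.03 and −0.04. Control groups did not overlap for 5 of the 8, all lower at 24 h, as for 18.9% of all genes in that direction. The median change of the 8 was −0.37, and that of all genes tested −0.02. The members were chosen with group differences of these arrays known. These counts and medians are therefore not read against all genes, and nothing particular to the members is read from them. Control arrays of 6 h and 24 h also differed in the 3′ less 5′ signal of control transcripts, a measure of RNA integrity and labelling. It was 0.77 to 0.83 for GAPDH and 2.82 to 3.25 for ACTB at 6 h, against 0.47 to 0.52 and 2.34 to 2.65 at 24 h. The part of this in the falls was not tested. The summed level of 11 noradrenergic markers was log2 13.78 to 13.89 at 6 h and 13.67 to 13.80 at 24 h, and that of 10 mesenchymal markers 13.98 to 14.06 and 14.02 to 14.21. These are sums of linear signals, in which the brightest markers weigh most. Singly, 2 of 10 tested noradrenergic markers were called lower by limma and 0 higher, with changes from −0.50 to 0.43. Of 9 tested mesenchymal markers 1 was called higher and 1 lower, with changes from −0.97 to 0.44. The part of the markers in the falls of the members was not tested either.

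Between fibrillar and oligomeric arrays, which differ in form as well as in hours, 3 of the 8 passed. TEAD2 and TEAD4 had lower levels with fibrils and VGLL4 a higher one, against 15.1% of all genes called, 6.5% higher and 8.61% lower. In the test of any difference among the 4 groups 5 of the 8 members passed (VGLL4, TEAD2, CCN1, AMOTL2 and YAP1), against 18.5% of all genes. Both counts include VGLL4 through its fibrillar arrays, whose level was known when it was chosen. The other members were also chosen with group differences of these arrays known, so neither count is read against all genes. For YAP1 (−0.14, adjusted p = 0.33) and AMOTL2 the falls seen between controls were not called between treated arrays by limma, and whether the size of the fall differed is the same test as the difference of the responses, which no member passed. In that test the differences were 0.21 for YAP1, 0.31 for CCN1, 0.30 for AMOTL2, 0.56 for WWTR1, 0.12 for TEAD2, −0.11 for TEAD1 and −0.36 for TEAD4, with adjusted p-values from 0.484 to 0.902, and 0.0425% of all genes were called.

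With fibrils limma called 1.19% of all genes (0.798% higher, 94 against 46 lower, or 143 against 23 after median centring). VGLL4 was among them, but its difference was known when the members were chosen, so its call is not read against that share, nor is the median of 0.13 over the 8 members, which includes it. None of the other 7 tested members was called. Of these 7, the fibrillar and control groups did not overlap for WWTR1, which was higher, as for 10.9% of all genes in that direction. In the fibrillar arrays (replicates 1, 2 and 3) the 3′ less 5′ signal was 0.81, 0.49 and 0.64 for GAPDH and 3.06, 2.48 and 2.78 for ACTB. Only replicate 2 lay within the range of the 24 h controls given above. The oligomeric arrays had 0.66 to 0.80 for GAPDH and 2.61 to 2.88 for ACTB. The part of this signal in the values was not tested. With oligomers limma called 0 of the 8 members and 0% of all genes, with an unadjusted p under 0.05 for 1 of the 8 (AMOTL2) and 327 genes (2.78%). The median change of the 8 was −0.07.

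The rest of the pathway was read from 6 lists of 94 genes, some in more than 1 list, of which 89 had a probe set of their own symbol and 76 passed the filter. These lists include the members and were also chosen with results of these arrays known. Between the controls 8 of the 76 fell and 1 rose, with a median change of −0.11, where 7.92% of all genes were called lower and 3.76% higher, so nothing particular to the lists is read from these counts. Besides the 4 members the falls were those of DOCK5, a guanine nucleotide exchange factor and YAP target (−0.58, SE 0.12, limma adjusted p = 0.00395), WWC3, a relative of KIBRA that promotes LATS activity (−0.52, SE 0.09, adjusted p = 0.00151), FAT1, an atypical cadherin upstream of the kinases (−0.41, SE 0.10, adjusted p = 0.0132), and FBXW11, an F-box protein of the ligase that degrades phosphorylated YAP (−0.32, SE 0.08, adjusted p = 0.0152). CTTNBP2NL, of the STRIPAK phosphatase complex, rose by 0.42 (SE 0.12, adjusted p = 0.0378), with groups that overlapped. DOCK5, WWC3 and FAT1 kept their calls in all 12 fits that left out 1 array. FBXW11 lost its call without control replicate 1 (adjusted p = 0.0512) or 3 (0.0628) of 6 h or replicate 2 of 24 h (0.0569), and the mean of its probe sets had the opposite sign (0.12, adjusted p = 0.648). CTTNBP2NL lost it without control replicate 2 (0.14) or 3 (0.114) of 6 h or replicate 1 (0.18) or 3 (0.117) of 24 h. The falls numbered 6 to 10 over the 12 fits, and 16 after median centring, where the rise of CTTNBP2NL was not called.

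With fibrils 3 of the 76 were called higher and 0 lower by limma, with a median of 0.08, where 1.19% of all genes were called and 0.798% were higher. The 3 include VGLL4, whose fibrillar value was known when it was chosen. Neither this count nor the median is therefore read against all genes, and nothing particular to the lists is read from them. Besides VGLL4 they were GADD45A, a stress-induced gene listed among YAP targets (8.14 ± 0.09 to 8.82 ± 0.34, SD, n = 3; 0.67, SE 0.14, limma adjusted p = 0.0342), and FAT1 (9.46 ± 0.01 to 9.94 ± 0.25; 0.48, SE 0.10, adjusted p = 0.0321). FAT1 thus had a lower level in the 24 h controls and a higher one with fibrils, and both comparisons use the 24 h controls. Their fibrillar calls each held in 6 of the 12 fits that left out 1 array, with adjusted p-values up to 0.122 for FAT1 and 0.136 for GADD45A, both without control replicate 1 of 24 h. They were also lost without fibrillar replicates 1 and 3, control replicates 2 and 3 of 24 h and control replicate 1 of 6 h. Between 1 and 6 of the 76 were called higher over these fits. The fibrillar calls of FAT1 and GADD45A were also lost with a constant prior variance and with the compared groups alone. That of GADD45A was lost with the mean of its probe sets as well. Of 15 tested targets 1 was called with fibrils, GADD45A, and of 17 genes of the kinase cascade 0 by limma. STK38L, a kinase related to LATS, came closest (0.37, SE 0.09, adjusted p = 0.0562). Lists of 11 STRIPAK genes and 11 genes of YAP retention and breakdown had 0 called with fibrils, with PPP2CA (0.16, adjusted p = 0.301) and FBXW11 (0.18, adjusted p = 0.316) closest. With oligomers 0 of the 76 were called by limma, and 2 had an unadjusted p under 0.05, against 2.78% of all genes. The largest difference, −1.29 for F3 (tissue factor, SE 0.69), rested on an SD of 2.16 in the oligomeric arrays.

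**Figure D3:**
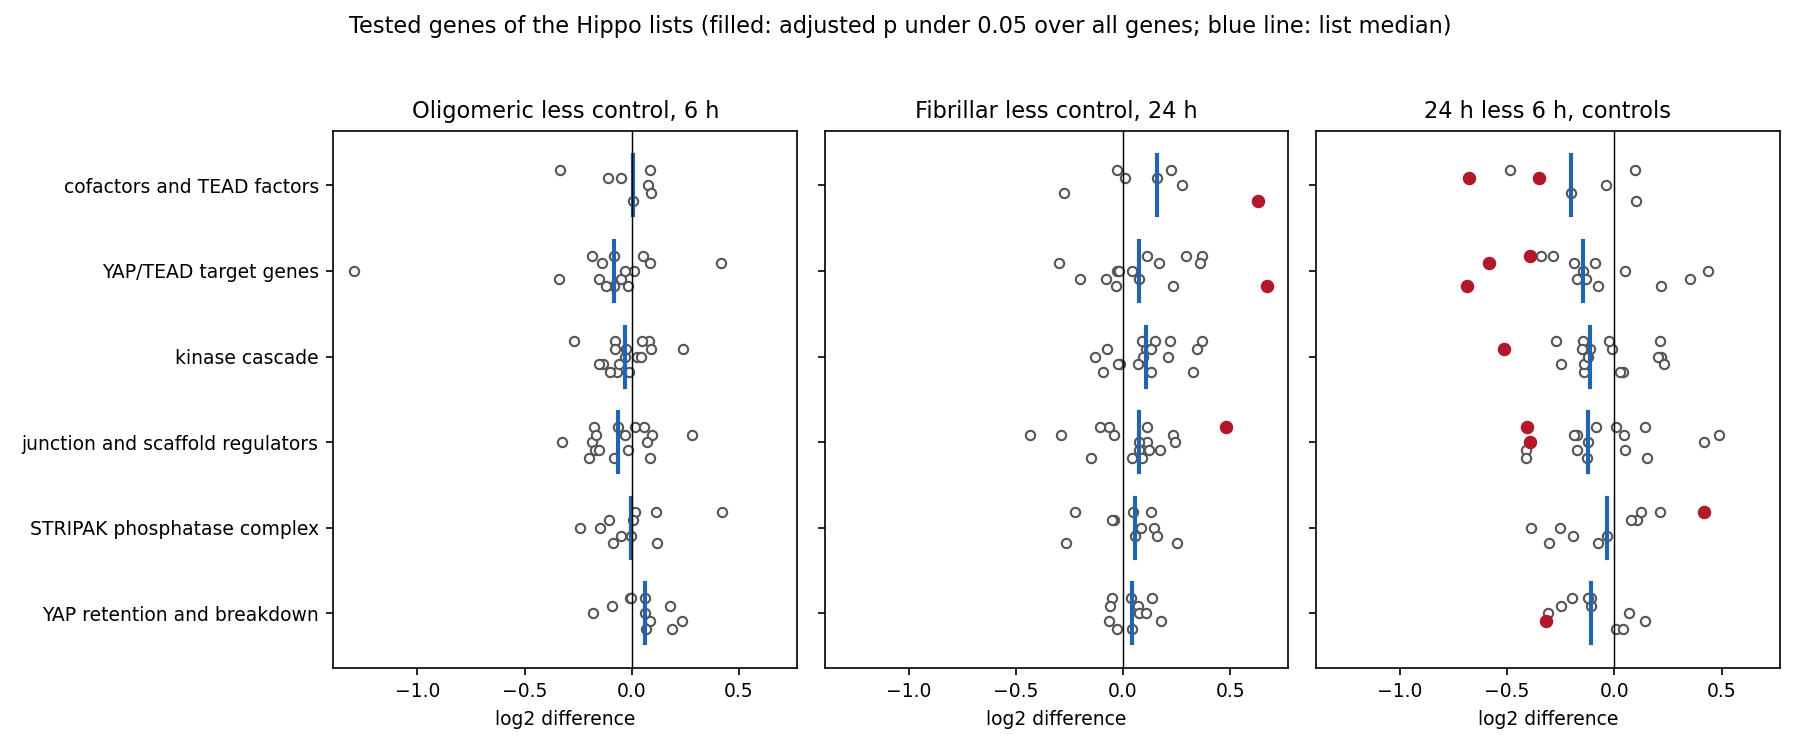
Log2 difference (horizontal axis) of the tested genes of 6 Hippo lists (vertical axis) in 3 comparisons. Points are genes, filled where the limma adjusted p over all genes was under 0.05, and blue lines are list medians. Filled points lie on the left between the controls, except for CTTNBP2NL at 0.42, and on the right with fibrils.

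The genes with profiles most like a member's were found as those with the smallest root mean square difference over the 12 arrays, after each gene was centred on its own mean, among all genes tested. For VGLL4 they were WASL, an actin nucleation factor (0.09), MAFF, a small Maf transcription factor (0.13), and ACAT2, a cytosolic thiolase (0.13), where the profile of VGLL4 itself had a root mean square of 0.32. The fibrillar differences of WASL, MAFF and ACAT2 were 0.58, 0.66 and 0.47, a description, since a profile like that of VGLL4 chose them. For CCN1, with 0.35, they were PTPRE (0.16), PROSER3 (0.17) and HYOU1 (0.17). For CCN2, whose signals were all under the filter level, no likeness was read.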

How the data were processed

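The authors deposited MAS5 signals on a log2 scale, 1 per probe set and array. MAS5 is named in the submitters' processing notes without a version. All arrays share a trimmed mean linear signal of 100, the mark of scaling to a common target. No further normalization was applied. Probe sets were named from the platform annotation, with symbols updated through RefSeq gene IDs (0 changed). Of them, 41091 carried 1 symbol, 1801 several and 11721 none, beside 62 controls. Each gene was its brightest 1-symbol probe set, tested where its mean was at or above the median of all probe sets. Group means of all 12 arrays were fitted with limma 3.58.1 (R 4.3.3, with data.table at 1.17.8), with a prior variance that followed the level, and Benjamini-Hochberg adjusted p-values over 11774 genes were called under 0.05. The procedure was tested on simulated data.

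Named genes were the 10 members, up to 3 called genes in each direction per Hippo list and comparison or else the one with the smallest p, and the 3 tested genes nearest in profile to VGLL4, CCN1 and CCN2, of which those for CCN2 are not given because its signals were too low. F3 and the marker genes given were named after their values were seen. Members and lists were chosen with earlier results of these data known. Alternatives were quantile normalization, median centring, filters, probe set rules, prior variances, array weights, the compared groups alone, a replicate block, log2 of the signal plus 16, and each array left out. The comparison of fibrillar with oligomeric arrays was added after the data were seen. Detection calls and scanner files were not used here.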

Additional observations from a re-analysis of the deposited data

Results flagged for a closer look

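The AMOTL2 arrays of the 2 preparations lay on opposite sides of their control means, a pattern that 7.07% of all 11774 tested genes showed in one order or the other. Its oligomeric arrays lay 0.15, 0.28 and 0.13 below the mean of the 6 h controls, and its fibrillar arrays 0.21, 0.02 and 0.10 above that of the 24 h controls, whose arrays they overlapped. Neither difference passed (limma adjusted p = 1 after rounding and 0.632). The fibrillar difference exceeded the oligomeric one by 0.30 (SE 0.12, 95% interval 0.04 to 0.55), which did not pass the test across all genes (adjusted p = 0.484).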

How the results depend on the processing

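Over 48 member results, 1076 values were recomputed under other settings, and 1037 kept their side of the threshold, while 30 lost a call and 9 gained one. Most of the 48 were not called in the main fit and could not lose a call. Among those called, YAP1 kept its call for any difference in 12 of 22 settings, and TEAD4 between treated arrays in 16 of 22. TEAD2 and AMOTL2 kept theirs between the controls in 23 of 23. Leaving aside the test of any difference, 27 of 902 values had the other sign, in 11 results, and 0 of these were called with either sign. With the mean of probe sets 0 members were called with fibrils. The same setting turned the fall of FBXW11 between the controls to 0.12. With a constant prior variance 0 were called with fibrils, 2 between the controls and 3 in the test of any difference among the 4 groups, where 5 were called in the main fit. With array quality weights 1 member, VGLL4, passed in the difference of the responses (0.63, adjusted p = 0.0462), which rests on the fibrillar value known when it was chosen. When single arrays were left out, the number called ran from 1 to 1 with fibrils, 0 to 0 with oligomers, 3 to 4 between controls, 2 to 3 between treated arrays, 0 to 1 for the difference and 3 to 6 for any difference, where YAP1 and AMOTL2 were lost and TEAD4 gained. All genes called with fibrils numbered 140, but 7 with a constant prior, 35 with the compared groups alone, 62 with the mean of probe sets, 76 with no filter and 269 with array weights. Without control replicate 1, 2 or 3 of 24 h they numbered 14, 64 and 28, without fibrillar replicate 1 or 3 87 and 21, without control replicate 1 of 6 h 62 and without oligomeric replicate 2 93. Between controls 1375 were called, and 719 without control replicate 2 of 6 h, 832 and 736 without replicate 1 or 3 of 24 h. Between treated arrays the number was 1779, and 992 without fibrillar replicate 3 and 1034 and 1142 without oligomeric replicate 2 or 3. After median centring the median change of all genes was 0.15 for the difference of the responses, with 12 genes called higher and 1 lower against 1 and 4. For that difference the number ran from 0 to 64, around 5, and for any difference it was 1379 with a constant prior, against 2183. Same-numbered replicates correlated between −0.02 and 0.09, and differently numbered ones between −0.12 and 0.09. At 24 h the same-numbered values (0.03, 0.07 and 0.07) were above all the others (−0.06 to 0.0024). The numbers were not taken as pairs because the labels do not say that they mark a shared culture or day. These correlations do not settle whether they do. With the replicate number as a block 1 member was called with fibrils and 4 between controls, as without it, and CCN1 passed between treated arrays (−0.37, adjusted p = 0.029). The block raised the number of genes called to 184 with fibrils, 1570 between controls and 2000 between treated arrays. Signals near background limit CCN2 and LATS2. The causes of the lost calls were not tested.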
